A study of Mus musculus with 2 samples.

Results

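Foxp3-expressing regulatory T (Treg) cells of the inflamed mouse colon were followed in a pair of droplet single-cell RNA libraries, 1 from WT mice and 1 from Ring1AKO mice. Of 13923 cell barcodes that passed the quality limits, 381 were Treg cells by the rule used here, 191 of 6005 in the WT library and 190 of 7918 in the Ring1AKO library. These members were chosen by their counts of unique molecular identifiers (UMIs, which count captured RNA molecules). A member had at least 1 UMI of Foxp3, at least 2 UMIs over the CD3 chains Cd3e, Cd3d and Cd3g, and no UMI of Cd79a, Csf1r or Cd8b1, which mark B cells, macrophages and CD8 T cells. Barcodes had to hold at least 1000 UMIs, at least 500 genes and less than 5% mitochondrial UMIs.

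Both groups were C57BL/6 mice of 8 to 10 weeks by the labels, and per the study's methods both had colitis induced by dextran sodium sulfate (DSS) in the drinking water. Viable CD45+ leukocytes (7-AAD-) of the colonic lamina propria (LP) were sorted from pooled animals, so that each genotype is a single library with no replicate. Ring1AKO mice lack Ring1a in the whole body, not in Treg cells alone, so the surrounding cells are mutant too. Genotype and library cannot be told apart. The 95% intervals cover counting error only. They are exact for levels, shares and gene ratios, and approximate on the log scale for ratios of shares and for differences between ratios. No test between the genotypes was possible, and no p-value is given.

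Treg cells are CD4 T cells that restrain other lymphocytes, and the transcription factor Foxp3 sets their program. They take up IL-2 through the high-affinity receptor chain Il2ra, remove costimulatory ligands from antigen-presenting cells through Ctla4, activate latent TGF-β through Lrrc32 and Itgb8, and secrete IL-10. In the colon they are commonly divided into cells with Gata3 and the IL-33 receptor ST2 (encoded by Il1rl1), which can make the repair factor amphiregulin (Areg), and cells with Maf that arise in response to the microbiota and are rich in IL-10. Ring1a is a ubiquitin ligase of polycomb repressive complex 1 (PRC1), which places a repressive mark on histone H2A.

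The members sampled 1233183 UMIs in the WT library and 1600518 in the Ring1AKO library. A WT member had a median of 5399 UMIs and 1999 genes, and a Ring1AKO member had a median of 5891 UMIs and 2084 genes. The Ring1AKO members had the longer upper tail, with 12 members of at least 4000 genes against 2 in the WT library. Median mitochondrial shares were 1.86% and 2.09% of UMIs, and median ribosomal protein shares were 21.9% and 24.1%. The libraries shared 11 of the kept barcodes, none of which was a member in both.

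Foxp3 lies on chromosome X at 7573644 to 7595245, on the plus strand (GENCODE vM21, GRCm38). Its counts sat close to the limit of the rule. A single Foxp3 UMI was found in 35 WT and 46 Ring1AKO members, and at least 3 UMIs in 111 and 110 members. The median was 3 UMIs in both libraries, and the highest count was 14 in WT and 12 in Ring1AKO. Just outside the rule stood 421 WT and 318 Ring1AKO cells that met every other criterion, had at least 1 Cd4 UMI and had no Foxp3 UMI, called Foxp3-zero cells here. Some of these will be Treg cells whose Foxp3 RNA was not captured. Among B cells, taken as cells with at least 2 Cd79a UMIs and no CD3 or Csf1r UMI, 0.738% in WT and 0.468% in Ring1AKO had a Foxp3 UMI and none had more than 1. Cells with Foxp3, at least 2 CD3 UMIs and Cd79a lay outside the rule, and held up to 8 Foxp3 UMIs in WT and 15 in Ring1AKO. Cd4 itself was detected in 148 of 191 WT members (77.5%) and in 124 of 190 Ring1AKO members (65.3%).

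The cells matched their name by the Treg markers that the rule did not use. To set aside depth, each cell was thinned to 2000 UMIs. Ctla4 was then detected in 93.2% of WT and 91.1% of Ring1AKO members, against 57.5% and 59.2% of Foxp3-zero cells and 10.2% and 6.5% of B cells. Ikzf2, which encodes the Treg factor Helios, was found in 65.4% and 52.1% of members, and in 19.1% and 17.4% of Foxp3-zero cells. Tnfrsf4 (OX40) reached 74.9% and 80.5% of members and 38.4% and 43.4% of Foxp3-zero cells. Lrrc32 and Penk, which encode GARP and the opioid precursor proenkephalin, were sparser. Lrrc32 was detected in 18.3% and 18.4% of members and Penk in 9.42% and 8.42%, against at most 3.16% of Foxp3-zero cells for either gene.

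Summed over cells and scaled to 1000000 UMIs (counts per that many, CPM), 16 of 17 counted genes of a 19-gene Treg list stood at least 1.5-fold above the Foxp3-zero cells in both libraries, with Foxp3 among them by construction. Over all 6489 genes counted, 6.87% did so and 3.42% were at least 1.5-fold lower in both. The list was drawn up from known Treg genes and the members were chosen on Foxp3, so these counts describe the members and test nothing. Among the genes highest by their smaller ratio was Tnfrsf9 (4-1BB, a costimulatory receptor), at 88.3 CPM in WT Foxp3-zero cells and 833 CPM in WT members, and at 96.7 and 827 CPM in the Ring1AKO library. Il10 was at 91.3 and 877 CPM in WT and at 108 and 612 CPM in Ring1AKO. Gzmb, the protease granzyme B, was at 211 and 1149 CPM and at 223 and 1230 CPM. RNA of a suppressive cytokine and of a cytotoxic protease was thus several times higher in members than in their neighbours in both libraries.

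Among the genes higher in members were 3 integrin chains. Itgav and Itgb8 together make the αvβ8 integrin that frees TGF-β from its latent complex, and Itgae (CD103) binds epithelial E-cadherin. Itgb8 was at 10.0 CPM in WT Foxp3-zero cells and 106 CPM in members, and at 8.43 and 42.5 CPM in Ring1AKO. Itgav was at 71.2 and 389 CPM and at 59.0 and 288 CPM, and Itgae at 21.1 and 158 CPM and at 15.9 and 83.7 CPM. Itgb1 was not higher, at 141 and 110 CPM and at 40.2 and 36.9 CPM. Of 14 counted genes of a TGF-β and integrin list, 5 were at least 1.5-fold higher in both libraries and 1 was lower. The chemokine receptor Ccr2 and the co-receptor Klrg1 were higher in members too, Ccr2 by log2 2.03 in WT and 2.35 in Ring1AKO, and Klrg1 by log2 2.96 and 3.13. Less familiar genes that met the same rule were Neb, which encodes the muscle filament protein nebulin (log2 2.98 and 2.62), the phosphatidylcholine enzyme gene Pcyt1a (2.43 and 2.36) and the heparan sulfate proteoglycan gene Sdc4 (2.45 and 2.28).

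The 10 genes lowest in members included the effector cytokine genes Il22, Ifng and Il17f. Il22 was at 687 CPM in WT Foxp3-zero cells and 7.30 CPM in members, and at 137 and 6.87 CPM in the Ring1AKO library. Ifng was at 239 and 4.06 CPM in WT and at 104 and 3.75 CPM in Ring1AKO. Il17f had 1 UMI in WT members and none in Ring1AKO members, beside 187 and 46.1 CPM in the Foxp3-zero cells. Tcf7, a factor of naive and memory T cells, was at 314 and 36.5 CPM in WT and at 322 and 35.6 CPM in Ring1AKO. Cd40lg, Tnfsf8, Tnfsf11, Bcl2, Pde3b and Lmo4 completed the lowest 10. The Foxp3-zero cells were not freed of droplets with other cells, and in WT they held 546 CPM of mast cell markers against 2.43 CPM in members.

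**Figure D1:**
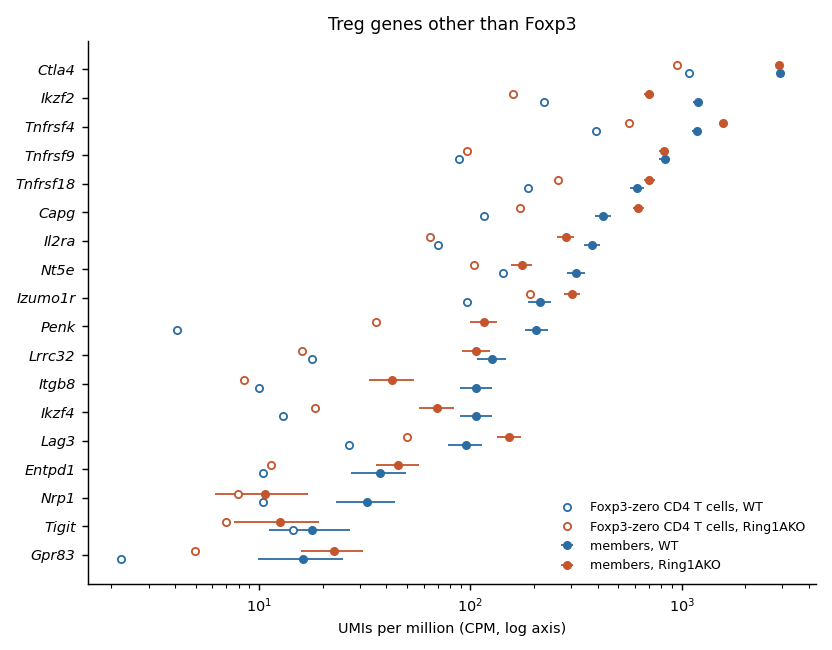
Level of 18 Treg genes other than Foxp3, in CPM on a log axis, in members (filled, with exact 95% counting intervals) and in Foxp3-zero CD4 T cells (open) of the WT and Ring1AKO libraries. Ctla4 lies at 2931 and 2903 CPM in members, and Ikzf2, Nt5e, Penk and Itgb8 lie further left in Ring1AKO than in WT members.

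The share of Treg cells depended on what it was counted against. Members made up 3.18% (2.75 to 3.66%) of kept WT cells and 2.40% (2.07 to 2.76%) of kept Ring1AKO cells, a log2 ratio of -0.41 (-0.69 to -0.12). Among CD3-positive cells without Cd79a or Csf1r, they were 191 of 1607 cells or 11.9% (10.3 to 13.6%) in WT, and 190 of 1518 cells or 12.5% (10.9 to 14.3%) in Ring1AKO. The log2 ratio of the latter shares was 0.07, and its interval of -0.20 to 0.35 spanned 0. Cd79a-positive B cells numbered 1626 in the WT library and 3844 in the Ring1AKO library. When cells with Cd79a and cells dominated by immunoglobulin RNA were left out of the denominator, the direction turned (log2 ratio 0.40).

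Ring1, the gene that encodes Ring1a (chromosome 17, 34020792 to 34024680, minus strand), does not check the labels here. In kept cells it was at 13.4 CPM (12.5 to 14.3) in WT and 11.8 CPM (11.0 to 12.7) in Ring1AKO. In members it was counted 23 times in WT (18.7 CPM, 11.8 to 28.0) and 17 times in Ring1AKO (10.6 CPM, 6.19 to 17.0), with a log2 ratio of -0.79 (-1.81 to 0.16). In Foxp3-zero cells it was counted 48 times in WT and 19 times in Ring1AKO, with a log2 ratio of -0.87 (-1.77 to -0.12). A 3′ library counts the end of the transcript, which can remain when another stretch is deleted. Its partner ligase gene Rnf2 (Ring1b) was at 39.7 and 41.2 CPM in members.

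Some members held many UMIs of other lineages, and these droplets carried much of what was highest in the Ring1AKO library. UMIs of macrophage, neutrophil, dendritic, mast and fibroblast markers were summed in each member. The median was 2 UMIs in both libraries, but 1 WT and 9 Ring1AKO members had at least 10, a limit set after the values were seen. The single WT droplet had 85, of which 84 were neutrophil UMIs. The Ring1AKO droplets had between 10 and 606, at totals of 9585 to 50221 UMIs. One Ring1AKO droplet held 557 neutrophil marker UMIs beside 130 of Cd14, and another held 328 fibroblast marker UMIs with 519 of Cxcl13 and 391 of Mgp. These 10 droplets made up 0.396% of the WT and 10.4% of the Ring1AKO members' UMIs. No doublet caller was run, so whether each of these droplets held a second cell was not tested. No droplet was removed from the rule, so each result is given with them and, where it matters, without them.

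**Figure D2:**
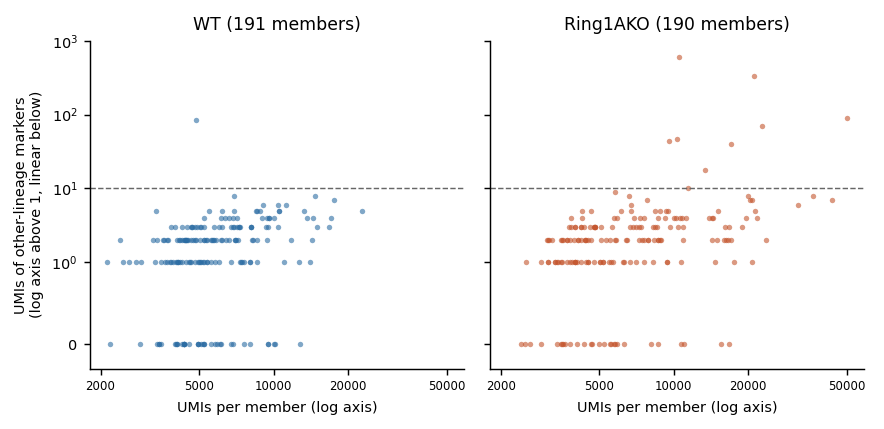
UMIs of macrophage, neutrophil, dendritic, mast and fibroblast markers in each member (log axis above 1, linear below) against the member's total UMIs (log axis), with a dashed line at 10 UMIs. One of 191 WT members and 9 of 190 Ring1AKO members lie on or above the line.

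The difference that these droplets made was plain in the 12 genes with the largest Ring1AKO to WT ratios over all members. They were Cxcl13, Ccl17, Mgp, Ifitm1, H2-Aa, H2-Eb1, Cd14, H2-Ab1, Cd74, Il1b, Ifitm3 and Ifitm2, that is, stromal and dendritic chemokines, MHC class II genes and genes of myeloid cells. Cxcl13 was counted 0 times in WT and 520 times in Ring1AKO, and 99.8% of those UMIs lay in 1 droplet. All 218 UMIs of Ccl17 lay in 1 droplet as well. Cd74, the invariant chain of MHC class II, was at 185 CPM in WT and 1180 CPM in Ring1AKO (log2 2.67). Without the 10 droplets it was at 185 and 240 CPM, and its log2 ratio was 0.37 (0.13 to 0.62). Il1b went from log2 2.55 to -0.83 (-1.43 to -0.27), and Ifitm1 from 3.40 to -0.22 (-1.14 to 0.70). Of these 12 genes, 0 were among the 12 highest when the droplets were left out.

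Counted over all members, 9.32% of 3842 genes with at least 100 UMIs were at least 1.5-fold higher in the Ring1AKO library and 17.1% were at least 1.5-fold lower. Without the droplets these shares were 9.11% and 16.5% of 3666 genes. The median log2 ratio of all genes was -0.05 and -0.04, respectively. The 12 lowest genes depended little on the droplets, and 10 of them were named either way.

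Without the droplets, several genes of DNA replication and of the dividing cell were on the higher side, by a size that depended on the deepest cells. H2ac24, a replication-dependent histone H2A gene, was at 74.1 CPM in WT and 415 CPM in Ring1AKO members, a log2 ratio of 2.47 (2.17 to 2.82). Pclaf, whose product binds the replication clamp PCNA, was at 30.9 and 155 CPM (2.30, 1.83 to 2.87). Stmn1, which encodes the microtubule regulator stathmin, was at 76.5 and 263 CPM (1.77, 1.45 to 2.13). In Foxp3-zero cells the same ratios were -1.51 for H2ac24, -0.98 for Pclaf and -0.27 for Stmn1. Dut and Dctpp1, which keep nucleotide pools clean, and the tubulin gene Tuba1b were also among the 12, with log2 ratios of 1.51, 1.31 and 1.17. When members with 4000 or more genes were left out too, a combination tried after seeing the data that kept 188 WT and 171 Ring1AKO members, the ratios were 1.19 (0.73 to 1.69) for H2ac24, 1.89 (1.10 to 2.93) for Pclaf, 0.99 (0.59 to 1.42) for Stmn1, 1.26 for Dut, 0.74 for Dctpp1 and 0.86 for Tuba1b.

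Few cells carried most of these counts. H2ac24 was detected in 19 of 190 WT and 29 of 181 Ring1AKO members without the droplets, and the 5 members with most of it held 79.1% and 63.4% of its UMIs. Pclaf was detected in 9 and 21 members, Birc5 in 7 and 22, and Tyms in 8 and 23. Mki67, a gene of all cycling phases, was detected in a like share, 36 WT members (18.9%, 13.6 to 25.3%) and 30 Ring1AKO members (16.6%, 11.5 to 22.8%). Its level without the droplets was 107 CPM in WT and 109 CPM in Ring1AKO. Over the 15-gene cell cycle list, 9 genes were counted, with a median log2 ratio of 0.66 without the droplets. Of these 9, 5 were at least 1.5-fold higher and 0 lower, beside 9.11% and 16.5% of all genes. Without members of 4000 or more genes as well, 3 of the 9 were higher, 1 was lower and the median was 0.39. No share over all genes is given for that setting. Mki67 was then at 90 and 54.5 CPM (-0.72, -1.19 to -0.26). Rrm2, a subunit of ribonucleotide reductase, rested on 14 and 93 UMIs (log2 2.27, 1.54 to 3.28, over all members).

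The remaining genes on the higher side had other roles. Ccr7, the receptor that guides T cells to lymph nodes, was at 165 CPM (143 to 190) in WT and 413 CPM (381 to 448) in Ring1AKO without the droplets. Its log2 ratio was 1.32 (1.09 to 1.56), and in Foxp3-zero cells it was also 1.32 (1.15 to 1.49), with a difference of 0.00 (-0.28 to 0.29) between them. Hilpda, a lipid droplet protein gene induced by low oxygen, was alike in both, with log2 ratios of 1.17 in members and 1.25 in Foxp3-zero cells. Pgam1 is an enzyme of glycolysis, Ndufv2 belongs to respiratory complex I, Alyref exports mRNA and Ddost glycosylates proteins in the endoplasmic reticulum. Their log2 ratios were 1.10, 1.08, 1.20 and 1.17.

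The genes on the lower side had varied roles, and several encode large cytoskeletal proteins or adhesion molecules. Ahnak, a giant scaffold protein gene, was at 823 CPM (773 to 875) in WT members and 276 CPM (250 to 303) in Ring1AKO members, a log2 ratio of -1.58 (-1.74 to -1.42). Macf1, Utrn and, without the droplets, Dst are further large linkers of the cytoskeleton, and had ratios of -1.56, -1.53 and -1.47. Itgb1, the β1 integrin chain, was at 110 and 36.9 CPM (-1.57, -2.05 to -1.13). S1pr1, the receptor by which lymphocytes leave tissues, was at 128 and 46.2 CPM (-1.46, -1.89 to -1.06). Rell1 had the lowest ratio (119 and 25 CPM, -2.23), followed by Ttn (-1.93). Ascc3, a helicase subunit gene, and Paxbp1 were also among the 12 lowest, at 126 and 39.4 CPM (-1.66) and at 229 and 75 CPM (-1.60).

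Most of these genes were lower in Foxp3-zero cells of the Ring1AKO library as well. The log2 ratios there were -1.09 for Ahnak, -1.79 for Itgb1, -0.74 for S1pr1, -2.30 for Rell1 and -2.85 for Ttn. The difference between the ratio in members without the droplets and that in Foxp3-zero cells was 0.20 (-0.37 to 0.77) for Itgb1. It was -0.50 (-0.72 to -0.27) for Ahnak and -0.66 (-1.13 to -0.20) for S1pr1, whose intervals excluded 0. H1f4, a linker histone gene, was lower by less in members (-1.54) than in Foxp3-zero cells (-2.55). A lower ratio in both cell groups cannot be told apart from a difference between the libraries as a whole.

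By summed UMIs, the type 2 tissue Treg genes were among the gene groups that stood lowest in the Ring1AKO library. Of 16 genes listed, 13 were counted. Of these, 7 were at least 1.5-fold lower, 0 were higher, and the median log2 ratio was -0.66, beside -0.05 over all genes. Without the droplets 7 were lower, 1 (Batf) was higher and the median was -0.61. When every cell was given equal weight instead of its UMIs, 5 were lower, 1 was higher and the median was -0.28, beside 12.8% lower and 7.05% higher over all genes. With equal weight and without the droplets 3 were lower, 1 was higher and the median was -0.26, beside 12.6% and 6.6%. These equal-weight shares are the background for the lists below as well. By summed UMIs the background was 17.1% lower and 9.32% higher, or 16.5% and 9.11% without the droplets. The interferon, microbiota-induced and TGF-β lists below had lower equal-weight medians than the type 2 list, at -0.54, -0.41 and -0.32.

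By summed UMIs, Il1rl1 and Gata3 were lower in the Ring1AKO members and higher in their neighbours. Il1rl1 was at 448 CPM (412 to 487) in WT and 201 CPM (180 to 224) in Ring1AKO members, a log2 ratio of -1.15 (-1.36 to -0.96). In Foxp3-zero cells it went the other way (0.47, 0.12 to 0.82), and the ratios differed by -1.60 (-2.00 to -1.21) without the droplets. Gata3, which drives Il1rl1, was at 354 and 224 CPM (-0.66, -0.87 to -0.46) in members and had a ratio of 0.24 (0.04 to 0.45) in Foxp3-zero cells. Gata3 was nevertheless detected in 46.6% of WT and 49.5% of Ring1AKO members, and with equal weight per cell its ratio was -0.13. By detection at 2000 UMIs per cell, the Foxp3-zero intervals spanned 0 for Il1rl1 (0.48, -0.38 to 1.34) and Gata3 (0.21, -0.22 to 0.63). Areg was at 1066 and 637 CPM (-0.74, -0.86 to -0.62), with a ratio of -0.10 (-0.24 to 0.03) in Foxp3-zero cells. By detection at 2000 UMIs per cell Areg was lower in both groups, in 46.1% of WT and 35.3% of Ring1AKO members (-0.39, -0.74 to -0.03) and in 18.6% and 11.7% of Foxp3-zero cells (-0.67, -1.19 to -0.15). The Foxp3-zero cells held 138 CPM of ILC2 markers in WT and 235 CPM in Ring1AKO, and 149 and 1108 CPM of B cell markers, and the part of these cells in the ratios there was not tested.

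Rora and Il18r1 were lower in both cell groups. Rora, a nuclear receptor shared by tissue Treg cells and type 2 innate lymphocytes, was at 1125 and 660 CPM in members (-0.77), and its ratio was -0.68 in Foxp3-zero cells. Il18r1, the IL-18 receptor chain, was at 204 and 87.5 CPM (-1.22), beside -1.28. Itgae was at 158 and 83.7 CPM (-0.91, -1.25 to -0.59), while its interval in Foxp3-zero cells spanned 0 (-0.39, -1.09 to 0.24, on 21.1 and 15.9 CPM). Batf, which opens the effector program of tissue Treg cells, stood higher, at 172 and 255 CPM (0.57, 0.33 to 0.82), as it did in Foxp3-zero cells (0.51, 0.30 to 0.73). Penk was lower in members (-0.83) and higher in Foxp3-zero cells (3.02), where it was at 4.08 and 35.7 CPM. Pparg was counted 2 times in WT and once in Ring1AKO, too few to compare.

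Among the Treg core genes, Helios and the ectoenzyme CD73 were lower and several receptors were level. Of 19 genes, 16 were counted, with a median log2 ratio of -0.13. Of these, 1 was at least 1.5-fold higher and 5 were lower, beside 9.32% and 17.1% of all genes. Without the droplets 3 were higher, 4 were lower and the median was -0.14, beside 9.11% and 16.5%. With equal weight per cell 1 was higher, 2 were lower and the median was 0.00, and the ratios of Ikzf2 and Nt5e were -0.46 and -0.47. Ikzf2 was at 1191 CPM (1131 to 1254) in WT and 700 CPM (660 to 743) in Ring1AKO (-0.77, -0.88 to -0.65). It was lower in Foxp3-zero cells too, at 222 and 159 CPM (-0.48, -0.69 to -0.29). Nt5e, which encodes CD73, was at 317 and 175 CPM (-0.86, -1.08 to -0.63), with a ratio of -0.46 (-0.71 to -0.22) in Foxp3-zero cells. Itgb8 was at 106 and 42.5 CPM (-1.31, -1.77 to -0.89). Ctla4 was at 2931 and 2903 CPM (-0.01, -0.08 to 0.05) and Tnfrsf9 at 833 and 827 CPM (-0.01, -0.13 to 0.11), intervals that left room for little difference in counting. Lag3 was higher in Ring1AKO (94.9 and 152 CPM, 0.68, 0.36 to 1.01), as it was in Foxp3-zero cells (0.90).

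Foxp3 itself was at 560 CPM in WT and 412 CPM in Ring1AKO members (-0.44, -0.60 to -0.29). Since each member had to hold a Foxp3 UMI, this level was shaped by the rule and by depth. Il2ra was at 377 and 284 CPM (-0.41, -0.60 to -0.22). Penk was at 205 and 116 CPM, but single members held 28% of its WT and 19% of its Ring1AKO UMIs.

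The genes of microbiota-induced Treg cells did not move as a block. Of 14 listed, 9 were counted, with 2 higher, 3 lower and a median of -0.52 (-0.38 without the droplets). The gut-homing receptor gene Ccr9 was at 29.2 and 58.1 CPM (0.97, 0.42 to 1.59), with 31% of its Ring1AKO UMIs in 1 member.

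Maf, which drives Il10 in these cells, was lower in Ring1AKO, at 1601 and 1065 CPM (-0.59, -0.68 to -0.49). Il10 (chromosome 1, 131019845 to 131024974, plus strand) was at 877 CPM (826 to 931) in WT and 612 CPM (575 to 652) in Ring1AKO, a log2 ratio of -0.52 (-0.65 to -0.39), or -0.38 without the droplets. In Foxp3-zero cells the Il10 ratio was 0.25 (-0.02 to 0.51). Prdm1, which encodes the effector regulator Blimp1, was at 119 and 73.7 CPM (-0.69, -1.06 to -0.33). Il17a had 25 and 116 UMIs, but 68% of the WT and 73% of the Ring1AKO UMIs came from a single member each.

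Interferon-induced genes formed another group that stood lower. Of 21 listed, 16 were counted. Of these, 10 were at least 1.5-fold lower and 0 higher, beside 17.1% and 9.32% of all genes. Their median was -0.65 (8 lower and -0.60 without the droplets). With equal weight per cell 6 were lower, 0 higher and the median was -0.54. Iigp1, a GTPase induced by interferon γ, was at 147 and 38.7 CPM (-1.91, -2.36 to -1.50), with 21% of its UMIs in 1 member of each library. Gbp4 and Isg15 had log2 ratios of -1.20 and -1.28. Ly6a (Sca-1) stood apart, at 770 and 958 CPM (0.31, 0.20 to 0.43). In Foxp3-zero cells the ratio of Iigp1 was -1.45, so the lower level of this gene was shared.

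**Figure D3:**
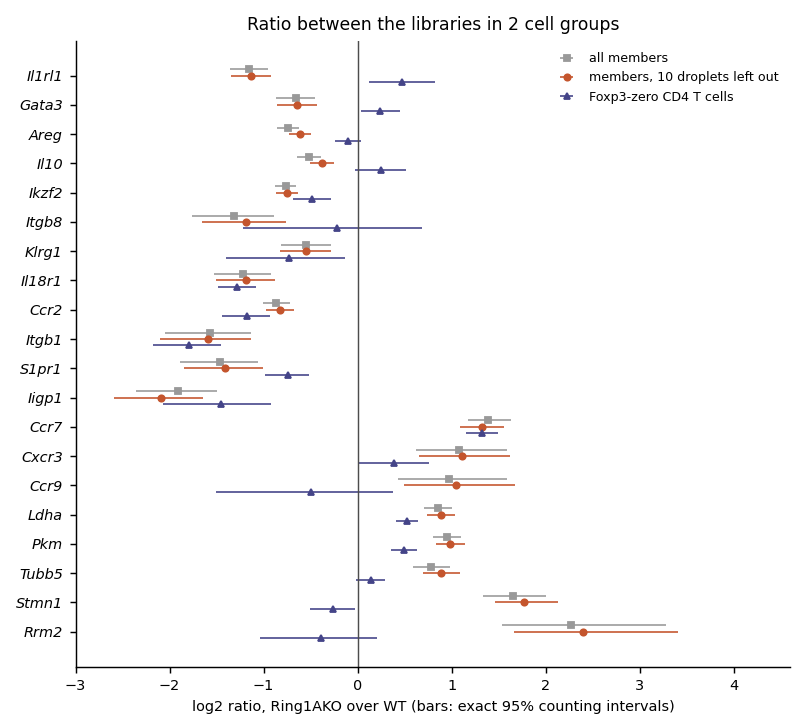
Log2 ratio of Ring1AKO to WT for 20 genes in all members (squares), in members without the 10 droplets (circles) and in Foxp3-zero CD4 T cells (triangles), with exact 95% counting intervals. Il1rl1 lies at -1.15 in members and 0.47 in Foxp3-zero cells, Ccr7 lies near 1.3 in both, and Stmn1 lies right of 0 in members only.

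Homing and retention genes held members on either side. Of 23 genes 19 were counted, 2 at least 1.5-fold higher and 6 lower, beside 9.32% and 17.1% of all genes, with a median of -0.22. Ccr2, which answers monocyte-attracting chemokines, was at 794 and 436 CPM (-0.86, -1.01 to -0.72), and Itga4, the α4 integrin chain of gut homing, at 310 and 141 CPM (-1.14, -1.38 to -0.90). Cxcr3, the receptor for interferon-induced chemokines, was higher, at 41.4 and 88.1 CPM (1.07, 0.62 to 1.58). Ccr2 and Itga4 were lower in Foxp3-zero cells too, by ratios of -1.18 and -0.76.

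Of the TGF-β and integrin list, 13 of 19 genes were counted, with a median of -0.45. Of these, 5 were lower and 0 higher, beside 17.1% and 9.32% of all genes. With equal weight per cell 3 were lower, 0 higher and the median was -0.32. Smad4, the shared mediator of TGF-β signals, was at 131 and 47.5 CPM (-1.46, -1.88 to -1.07), while Tgfb1 was at 262 and 306 CPM (0.22, 0.02 to 0.43). The lists overlap, and Ikzf2, Gata3, Rora, Maf, Ahr and Prdm1, lower genes of lists above, are also among the transcription factors. Of these 28 factors 23 were counted, 9 lower and 0 higher, with a median of -0.44. With equal weight per cell 5 were lower, 1 was higher and the median was -0.24, and without the droplets as well 3 of 22 were lower, near the share of all genes, 1 was higher and the median was -0.19. Over all members Bcl6 had the lowest ratio of these factors (-1.07), followed by the NF-κB subunit gene Rel, at 762 and 387 CPM (-0.98, -1.13 to -0.83). Of 26 cytokine receptor genes, 20 were counted, with a median of -0.30. Of these, 5 were lower and 1 higher (25% and 5%), beside 17.1% and 9.32% of all genes. Il18rap, the partner of Il18r1, was at 91.6 and 33.1 CPM (-1.45, -1.97 to -0.99). The higher gene was the decoy receptor gene Il1r2, whose ratio of 0.86 was 0.49 without the droplets and 0.31 with equal weight per cell.

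Of 18 metabolic genes 11 were counted, 3 at least 1.5-fold higher (Ldha, Pkm and Fabp5) and 2 lower, beside 9.32% and 17.1% of all genes, with a median of -0.02. With equal weight per cell 2 were higher and 1 lower. Ldha, lactate dehydrogenase, was at 440 and 795 CPM (0.85, 0.71 to 1.00) and Pkm, pyruvate kinase, at 416 and 802 CPM (0.94, 0.80 to 1.10). Their ratios in Foxp3-zero cells were 0.52 and 0.49. Other listed genes of sugar use had ratios of 0.22 (-0.32 to 0.79) for the glucose transporter gene Slc2a1, 0.55 (-0.01 to 1.16) for the hexokinase gene Hk2, which was -0.05 without the droplets, and -0.60 (-0.74 to -0.47) for the regulator gene Hif1a. Checkpoint and TNF receptor genes (13 of 15 counted, 1 higher and 0 lower, median -0.01), lymphoid Treg genes (10 of 13, 1 higher and 1 lower, -0.21) and secreted mediators (8 of 20, 1 higher and 2 lower, 0.16) stayed near the background. Of 24 polycomb genes 13 were counted, 1 was higher and 0 lower, with a median of -0.33. The higher one was the PRC2 methyltransferase gene Ezh2, on 42 and 99 UMIs (0.84, 0.33 to 1.42, and 0.11 with equal weight per cell).

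Immediate early genes, which also respond to tissue digestion, changed with the droplets. Of 18 genes 17 were counted, with 1 higher, 5 lower and a median of -0.16 over all members, and with 0 higher, 7 lower and a median of -0.46 without the droplets. With equal weight per cell 1 was higher, 2 were lower and the median was -0.08, or -0.20 without the droplets. Egr1 was at 47.8 and 97.5 CPM, with 69% of its Ring1AKO UMIs in 1 member, and its ratio went from 1.01 to -0.64. RNA of other cell types also differed between the libraries. The summed plasma cell markers, led by Igkc, were at 5196 CPM in WT and 7236 CPM in Ring1AKO members, with 2 of 6 counted genes higher. The Igkc ratio was 0.67. Subtracting the profile of cell-free barcodes left at most 3 of its counts in each library. That profile was scaled to remove all Igha, another immunoglobulin gene, so the step cannot tell where Igkc came from. B cell markers, led by Cd74, summed to 251 and 1718 CPM, and to 252 and 352 CPM without the droplets, with Cd79a at 0 by the rule. Neutrophil markers, led by S100a9, summed to 137 and 419 CPM, and to 69.2 and 68.3 CPM without the droplets. Macrophage markers, led by Ctss, summed to 223 and 372 CPM, and to 223 and 200 CPM without them. CD8 and NK markers, led by Gzma, summed to 289 and 564 CPM, and to 290 and 348 CPM without them. Gamma-delta T cell markers summed to 12.2 and 48.7 CPM, and to 12.2 and 25.1 CPM without them. The rest were low, with ILC2 markers at 63.3 and 43.7 CPM, epithelial markers at 56 and 35.6 CPM, and dendritic, mast and fibroblast markers each under 13 CPM in both libraries without the droplets. The genes of conventional T cells (8 of 8 counted) had 0 past 1.5-fold and a median of 0.12. The part of these other cells in the results that remain without the droplets was not tested.

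**Figure D4:**
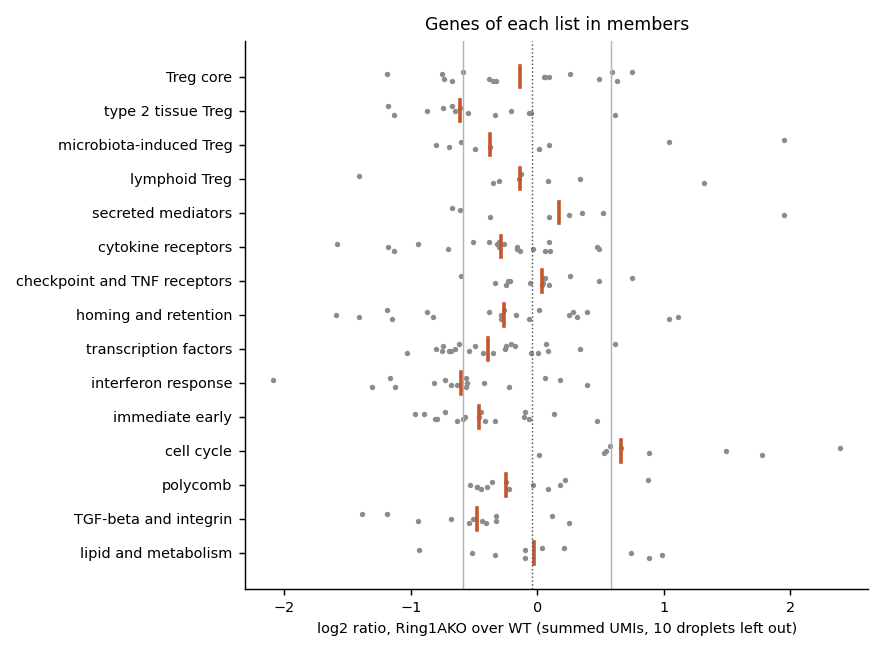
Log2 ratio of Ring1AKO to WT for each counted gene of 15 lists in members without the 10 droplets (grey points), with the list median (orange bar), the median of all counted genes (dotted line, -0.04) and 1.5-fold in either direction (grey lines). The medians of the type 2 and interferon lists lie near -0.6 and that of the cell cycle list at 0.66.

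Cells that combined Il1rl1, Klrg1 and Gata3 were a distinct portion of the members. Il1rl1 lies on chromosome 1 (40429570 to 40465415, plus strand), Klrg1 on chromosome 6 (122270596 to 122282882, minus strand) and Gata3 on chromosome 2 (9857078 to 9890034, minus strand). At least 2 of the 3 genes were detected in 67 WT members (35.1%, 28.3 to 42.3%) and 57 Ring1AKO members (30%, 23.6 to 37.1%), a log2 ratio of -0.23 (-0.64 to 0.19). All 3 were detected in 36 and 35 members. At 2000 UMIs per cell the shares with at least 2 were 27.2% and 20.5% (log2 ratio -0.41, -0.93 to 0.12), against 4.30% and 6.65% of Foxp3-zero cells and at most 0.0263% of B cells. The combination was thus far above the share that free RNA gave to B cells, and the interval of its ratio between the libraries spanned 0. Of the single genes at this depth, Il1rl1 was found in 28.8% of WT and 19.5% of Ring1AKO members (log2 ratio -0.56, -1.09 to -0.04), while the intervals for Klrg1 (ratio -0.43) and Gata3 (ratio -0.04) spanned 0.

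These type 2 members differed from the other members in more than the genes that chose them. Of the 10 droplets with many UMIs of other lineages, 1 was a WT type 2 member and 7 were Ring1AKO type 2 members. They held 1.05% and 29.3% of the UMIs of the type 2 members. Of 3842 genes, 3.44% were at least 1.5-fold higher in both libraries. Gzma, the protease granzyme A, was at 22.1 CPM in the other members and 515 CPM in type 2 members of the WT library, and at 90.0 and 1343 CPM in Ring1AKO. Few cells held it, since it was detected in 22.4% of WT and 33.3% of Ring1AKO type 2 members, and 1 cell held 37.7% of the Gzma UMIs of the latter. Without the droplets, of which that cell was 1, the log2 ratio was 4.48 in WT and 5.35 in Ring1AKO, and 2 cells held 45.6% and 84.1% of the Gzma UMIs of type 2 members. Dgat2, which makes triglycerides, was at 7.81 and 99 CPM (3.47, 2.43 to 5.18) in WT and at 8.74 and 92 CPM (3.29, 2.38 to 4.56) in Ring1AKO. Ebi3, the subunit of IL-35 and IL-27, was at 13.0 and 71.0 CPM and at 18.4 and 110 CPM.

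The other genes that met the naming rule were Ctsh (a lysosomal protease, log2 3.12 and 3.74), Pxdc1 (3.60 and 2.74), Acod1 (the itaconate enzyme, 3.35 and 3.37) and S100a9. S100a9 is a neutrophil gene, and 68.9% and 93.6% of its UMIs in type 2 members lay in 1 droplet each. Its ratios were 0.93 and -0.09 without the droplets. Acod1 kept a higher level without them (3.37 and 2.49).

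Areg and Penk, both of secreted products, were higher in the type 2 members. Areg was at 610 CPM in the other WT members and 1819 CPM in the type 2 members (1.57, 1.41 to 1.74), and at 537 and 890 CPM in Ring1AKO (0.73, 0.55 to 0.91, or 1.13 without the droplets). Penk was at 42.9 and 474 CPM (3.43, 2.93 to 4.04) and at 55.9 and 265 CPM (2.23, 1.80 to 2.71). Of the type 2 Penk UMIs without the droplets, 2 cells held 49.1% in WT and 57.9% in Ring1AKO, and without these cells type 2 members were at 252 and 170 CPM. Ikzf2 was also higher, by 1.62 in WT and 1.39 in Ring1AKO, and so were Rora (1.05 and 0.75), Tnfrsf9 (1.25 and 0.75), Itgb8 (1.28 and 1.24) and Il18rap (1.47 and 2.25). For Foxp3 and Il2ra the intervals spanned 0, with Foxp3 ratios of -0.02 (-0.25 to 0.21) and 0.12 (-0.13 to 0.36). Without the droplets the Foxp3 ratio in Ring1AKO was 0.40 (0.13 to 0.65).

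In the other direction, 3.1% of genes were at least 1.5-fold lower in type 2 members of both libraries, among them Il10 and Lag3. Il10 was at 1253 CPM in the other WT members and 256 CPM in type 2 members (-2.28, -2.58 to -2.01), and at 755 and 254 CPM in Ring1AKO (-1.56, -1.86 to -1.29, or -1.12 without the droplets). Lag3 was at 144 and 12.9 CPM in WT and at 192 and 52.6 CPM in Ring1AKO. Maf (-0.75 and -0.61), Ctla4 (-0.78 and -0.48), Ccr2 (-1.01 and -0.46) and Ccr7 (-1.76 and -0.96) were lower in both libraries. Without the droplets the Ring1AKO ratios were -0.39 for Maf, -0.19 for Ctla4, -2.99 for Ccr7 and -0.22 for Ccr2, the last with an interval of -0.52 to 0.05 that spanned 0.

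Between the libraries, the levels within type 2 members depended in size on the droplets. Over all type 2 members, Areg was at 1819 CPM (1699 to 1946) in WT and 890 CPM (805 to 981) in Ring1AKO (-1.03, -1.21 to -0.86). Without the droplets it was at 1834 and 1206 CPM (-0.60, -0.78 to -0.43). Il1rl1 was at 1057 and 662 CPM (-0.67, -0.89 to -0.47), and at 1040 and 828 CPM (-0.33, -0.55 to -0.11) without them. Areg was thus lower in Ring1AKO either way. Il1rl1 was lower too, but it helped to choose these cells, so its level here was shaped by the rule. Klrg1, shaped by the rule in the same way, turned in direction, from -0.25 (-0.53 to 0.03) to 0.06 (-0.24 to 0.34), and both intervals spanned 0. Il10 was at 256 and 254 CPM (-0.01, -0.39 to 0.37), and at 259 and 353 CPM (0.45, 0.07 to 0.83) without the droplets. Gzmb was higher in the Ring1AKO cells by 0.81 (0.60 to 1.02), or 0.64 (0.41 to 0.87) without the droplets. The difference of Gzma rested on few cells. It was 1.38 (1.17 to 1.61) over all type 2 members and 1.17 (0.93 to 1.41) without the droplets, where 2 Ring1AKO cells held 162 and 155 of 377 UMIs. When the 2 cells with most Gzma were left out of each library as well, a choice made after seeing the data, Gzma was at 296 and 206 CPM and the direction turned (-0.51, -0.99 to -0.07). The same step left ratios of -1.07 (-1.31 to -0.85) for Areg, -0.46 (-0.71 to -0.22) for Il1rl1 and 0.33 (0.03 to 0.64) for Gzmb, and the interval for Il10 then spanned 0 (0.38, -0.12 to 0.88). Cd74, a gene of B cells and myeloid cells, was at 228 CPM in WT and 3658 CPM in Ring1AKO type 2 members, and at 228 and 400 CPM (0.81, 0.42 to 1.19) without the droplets. The part of the RNA of other cells in the differences that remain was not tested.

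Il10-positive cells made up about as large a portion of the members in both libraries. At least 1 Il10 UMI was found in 92 WT members (48.2%, 40.9 to 55.5%) and 101 Ring1AKO members (53.2%, 45.8 to 60.4%), a log2 ratio of 0.14 (-0.14 to 0.43). In the Ring1AKO library the Il10-positive members were deeper than the others, with median totals of 7276 and 5471 UMIs. At 2000 UMIs per cell the shares were 42.4% and 37.9%, a log2 ratio of -0.16 (-0.52 to 0.19), so the direction of the difference turned with depth. The same measure gave 7.40% and 7.28% of Foxp3-zero cells and 1.92% and 1.32% of B cells.

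Gzmb went with Il10 in both libraries. Of 3842 genes, 3.15% were at least 1.5-fold higher in Il10-positive members of both. Gzmb was at 341 CPM in Il10-negative and 1960 CPM in Il10-positive WT members (2.52, 2.31 to 2.74), and at 404 and 1753 CPM in Ring1AKO (2.11, 1.92 to 2.31). It was detected in 30.3% of Il10-negative and 68.5% of Il10-positive WT members, and in 28.1% and 69.3% in Ring1AKO, before thinning. Read the other way at 2000 UMIs per cell, Il10 was found in 66.7% of Gzmb-positive and 24.5% of Gzmb-negative WT members, and in 55.1% and 25.9% in Ring1AKO.

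Of 13 counted checkpoint and TNF receptor genes, Ctla4, Lag3 and Havcr2 were at least 1.5-fold higher in Il10-positive members of both libraries and 1 (Cd83) was lower. Lag3 was at 30.7 and 159 CPM in WT (2.31, 1.65 to 3.17) and at 61.2 and 210 CPM in Ring1AKO (1.75, 1.28 to 2.32). Havcr2, which encodes TIM-3, was higher by 1.91 and 1.42, Ctla4 by 0.76 in both, Ccr2 by 1.24 and 0.80, and Maf by 1.03 and 0.81. The inhibitory receptor gene Pdcd1 was not higher, with ratios of -1.76 (-2.73 to -1.01) and -0.34 (-0.97 to 0.32), and the intervals for Tigit spanned 0 (0.25 and 0.76). At 2000 UMIs per cell, Il10 was detected in 49.7% of Maf-positive and 11.1% of Maf-negative WT members, and in 45.3% and 18.9% in Ring1AKO. Ccr9 was at 6.47 and 52.0 CPM and at 3.22 and 92.9 CPM.

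The other genes that met the naming rule were scarcer. Laptm4b, a lysosomal membrane protein gene, was at log2 3.23 and 2.42. The cell cycle genes Birc5 and Uhrf1 were at 1.86 and 1.93, and at 2.12 and 2.34. Of 9 counted genes of the cell cycle list, 6 were at least 1.5-fold higher in Il10-positive members of both libraries and 0 lower. Over all genes these shares were 3.15% and 2.52%. Rbm24, which encodes an RNA-binding protein, was found in no Il10-negative member and in 14.1% of WT and 10.9% of Ring1AKO Il10-positive members (30.9 and 19.4 CPM). The chemokine gene Ccl20, the ligand of Ccr6, was absent from Il10-negative WT members. It was at 153 CPM in the Il10-positive ones, with 43.6% of the UMIs in 1 cell. In Ring1AKO it was at 9.67 CPM in Il10-negative and 51.0 CPM in Il10-positive members (2.21, or 1.45 without the droplets). Il17a met the rule as well (log2 2.53 and 3.84), but 77.3% of its WT and 75.9% of its Ring1AKO UMIs in Il10-positive members lay in 1 cell each.

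Of 3842 genes, 2.52% were at least 1.5-fold lower in Il10-positive members of both libraries. Of the 13 counted type 2 genes, 4 were (Il1rl1, Gata3, Penk and Dgat2) and 1, Itgae, was higher. Ikzf2, which encodes Helios, was at 1680 and 701 CPM in WT (-1.26, -1.43 to -1.10) and at 1086 and 456 CPM in Ring1AKO (-1.25, -1.43 to -1.08). Il1rl1 (-0.79 and -0.66), Gata3 (-0.66 and -1.38) and Penk (-1.07 and -2.32) were lower in both. Gzma had ratios of -1.20 and -1.58, on counts held by few cells. Tcf7 was at 64.7 and 8.13 CPM in WT and at 61.2 and 19.4 CPM in Ring1AKO, and the chromatin organizer gene Satb1 was lower by 0.62 and 0.56 on the log2 scale (ratios -0.62 and -0.56).

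Both kinds of member overlapped in part. Il10 was detected in 18 of 67 WT type 2 members (26.9%, 16.8 to 39.1%) and in 74 of 124 other WT members (59.7%, 50.5 to 68.4%). In Ring1AKO it was detected in 23 of 57 type 2 members (40.4%, 27.6 to 54.2%) and in 78 of 133 others (58.6%, 49.8 to 67.1%). The intervals of the type 2 and other members did not overlap in WT and overlapped in Ring1AKO. The share of Il10 among type 2 members had a log2 ratio of 0.59 between the libraries, with an interval of -0.14 to 1.32 that spanned 0. At 2000 UMIs per cell it was found in 23.1% and 28.2% of type 2 members (0.29, -0.73 to 1.31).

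**Figure D5:**
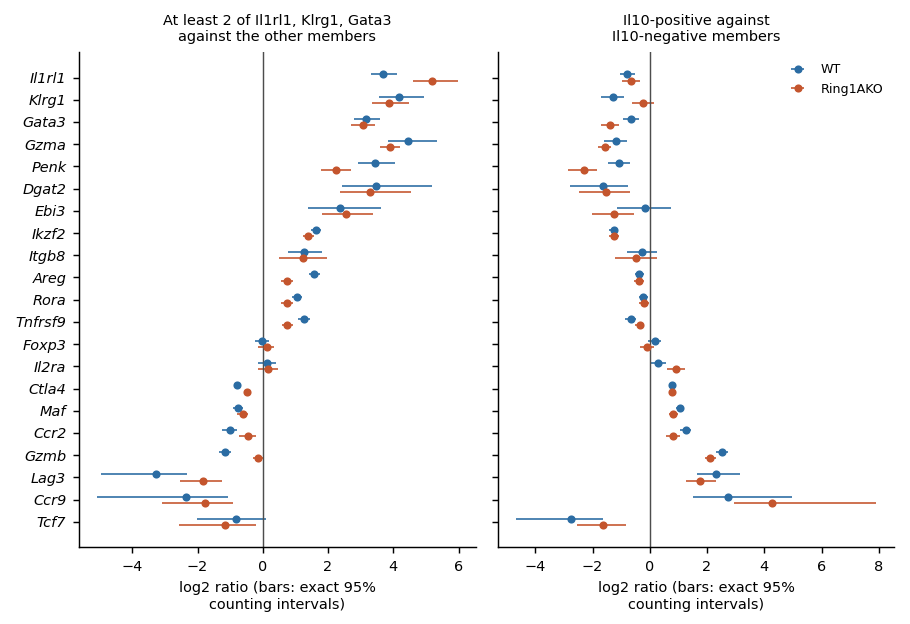
Log2 ratio of type 2 members to the other members (left) and of Il10-positive to Il10-negative members (right) for 21 genes in the WT and Ring1AKO libraries, with exact 95% counting intervals. Gzma, Penk and Ikzf2 lie right of 0 on the left and left of 0 on the right, and Maf, Ccr2, Lag3 and Ccr9 lie the other way.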

How the data were processed

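The data were 2 unfiltered 10x Genomics 3′ matrices, 1 per genotype, holding UMI counts per gene and barcode as deposited by the authors, with no normalization (unit: counts, 32228 genes listed, 74414511 UMIs in the WT and 81862096 in the Ring1AKO library). The methods state Cell Ranger with mm10, the submitters' processing notes give Cell Ranger 6.0.2, Seurat and mm39, and the matrix header gives version 4. Coordinates are therefore a match by gene ID to GENCODE vM21 on GRCm38. Counts were analysed with Python 3.11.15, numpy 2.4.6, scipy 1.17.1 and pandas 2.3.3.

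Barcodes and members were kept by the stated rule. Neither doublet removal nor clustering was applied. The members, gene lists and comparisons were chosen with earlier results of these data known. UMIs were summed per library and scaled to 1000000 (CPM). Ratios had 1 UMI added to each sum, and a gene was counted with at least 100 UMIs over both libraries. CPM have exact Poisson intervals, shares Clopper-Pearson intervals, gene ratios exact conditional intervals, and ratios of shares and differences of ratios intervals on the log scale, all at 95% and for counting error only. The interval code was tested on simulated data. Shares were also taken after thinning cells to 2000 UMIs.

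Named genes were the 12 highest and 12 lowest ratios between libraries with at least 100 CPM in either, the 15 highest and 10 lowest against Foxp3-zero cells, and the 10 highest in each subset with at least 30 UMIs. Immunoglobulin, T-cell-receptor variable, mitochondrial, ribosomal, unnamed and sex-linked marker genes were left out of these. Genes of the lists could be named too, and some genes were in several lists. "At least 2 of 3" was the reading taken for cells positive for Il1rl1, Klrg1 and Gata3. Alternatives changed the cell limits, the Foxp3 minimum, the denominator, the UMI minimum, the fold, the scaling and the weighting of cells, and left out droplets with other lineages. Results for some genes are not reported here.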

Additional observations from a re-analysis of the deposited data

Results flagged for a closer look

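Birc5, Il17a and Penk were among the genes whose ratio between the libraries had opposite directions in members and in Foxp3-zero cells. These genes were past 1.5-fold in both. H2ac24 (2.47 and -1.51) and Pclaf (2.30 and -0.98) did the same when the droplets were left out of the members. The difference was not tested, since each genotype had 1 library. Birc5, which encodes the mitotic protein survivin, had a log2 ratio of 1.34 (0.81 to 1.95) in members and -1.17 (-1.82 to -0.61) in Foxp3-zero cells. Il17a had a log2 ratio of 1.79 in members and -1.48 in Foxp3-zero cells, with most of its UMIs in 1 member of each library. Penk had a log2 ratio of -0.83 in members, which was -0.38 with equal weight per cell, short of 1.5-fold, and 3.02 (2.21 to 4.19) in Foxp3-zero cells.

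Foxp3 was also counted in cells outside the rule. Cells with Foxp3 and CD3 that carried Cd8b1 made up 0.333% (0.204 to 0.514%) of kept WT cells and 0.265% (0.164 to 0.405%) of kept Ring1AKO cells. Cells with Foxp3 and CD3 that carried Cd79a made up 0.533% (0.365 to 0.751%) of WT and 1.24% (1.01 to 1.51%) of Ring1AKO kept cells, 32 and 98 cells with medians of 12177 and 12872 UMIs and of 2 and 3 Foxp3 UMIs. All cells with Foxp3 and at least 2 CD3 UMIs made up 4.26% (3.77 to 4.81%) and 3.98% (3.56 to 4.43%). Cells with Foxp3 and fewer than 2 CD3 UMIs made up 0.483% (0.324 to 0.693%) and 0.606% (0.447 to 0.803%). The latter had a median of 1 Foxp3 UMI in both libraries.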

How the results depend on the processing

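Of 639 recomputed values under 23 settings, 572 stayed within the interval of the reported value, or within 1.5-fold for counts of genes. Another 62 moved outside these limits, and 5 changed direction where the reported interval excluded 0. Where that interval spanned 0, a change of sign was not counted among the 5. The share of members among kept cells had a log2 ratio of -0.41, and of -0.10 with kept cells thinned to 1000 UMIs. It was 0.40 without Cd79a-positive or immunoglobulin-dominated cells in the denominator. The share of Il10-positive members had a log2 ratio of 0.14, and of -0.16 at 2000 UMIs. The 358 genes at least 1.5-fold higher became 216 among members with fewer than 4000 genes, 615 with a minimum of 50 UMIs, 173 with 200 UMIs and 86 at 2-fold, and the 656 lower genes became 1032, 342 and 136 under the last 3 of these.

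The other reversals were single genes carried by droplets. Without the 10 droplets of other lineages, Ifitm1 had -0.22 on 22 UMIs in each library and Il1b had -0.83. Mgp had -0.83 among members with fewer than 4000 genes and -0.55 without the droplets, the latter on 4 and 3 UMIs. No ratio was taken where both libraries held at most 3 UMIs, as for Ccl17, which had none left without the droplets. Leaving out the droplets or the deepest members was chosen after seeing the data. No paired analysis was possible because there was 1 library for each genotype, so none could be left out. Genes under about 100 UMIs, such as Ring1, are limited by depth.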
